A study of Mus musculus with 18 samples.

Results

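The interferon regulatory factor genes were followed through 6 sorted CD4+ T-cell populations. The members were the rows of the deposited table whose symbol was Irf1, Irf2, Irf3, Irf4, Irf5, Irf7, Irf8 or Irf9, 8 of 15402 genes, and all 8 were among the 13190 genes tested. The cells came from female C57/BL6 mice that carried Foxp3Timer and Foxp3-IRES-GFP. In these mice new Foxp3 transcription yields a blue Timer protein that matures to a red form. Every mouse had received 3% oxazolone on the abdominal skin, and the inguinal and axillary lymph nodes were taken 5 days later, so no unsensitised control was measured. Timer-negative GFP-negative cells were sorted as CD44lo (Tnaive) or CD44hi (Teff). Timer+ GFP+ cells, the Foxp3 expressors, were sorted by Timer maturation as Pers1, Pers2, PAt and Arrested, for which the sample labels use the words de novo, maturing, mature and decaying. Each population had 3 libraries from pooled lymph nodes, 18 in all, and the p-values below measure the spread between these pools.

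Interferon regulatory factors share a DNA-binding domain that contacts GAAA-containing elements in the promoters of interferons and of the genes that interferons induce. Irf3, Irf5 and Irf7 are activated by sensors of nucleic acids, Irf9 is the DNA-binding subunit of the complex ISGF3 that answers type I interferon, and Irf1 and Irf2 bind the same elements as activator and antagonist. Irf4 and Irf8 are the lymphoid and myeloid members: Irf4 is induced by T-cell receptor signalling and is needed for effector regulatory T cells, and Irf8 is a defining factor of dendritic cells and is expressed in B cells.

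The family split into 3 genes whose level differed strongly between populations and 5 genes that varied less. On the deposited scale, log2 of the normalised read count, the 6 population means spanned 3.71 for Irf4, 3.73 for Irf8 and 3.21 for Irf5. The span was 0.95 for Irf7, 0.64 for Irf1, 0.47 for Irf9, 0.44 for Irf3 and 0.40 for Irf2. Per kilobase of exon, which allows genes to be compared within a population, Irf1 ranked the highest of the 8 in Tnaive (11.40), Pers2 (11.15), PAt (11.36) and Arrested (11.46). Irf4 ranked the highest in Teff (10.94) and Pers1 (11.28), and only 6th in Tnaive (7.57). Irf8 ranked last in every population except Teff, where Irf5 did. Both overlap other genes, as given below, so a part of their values could be split or shared.

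**Figure D1:**
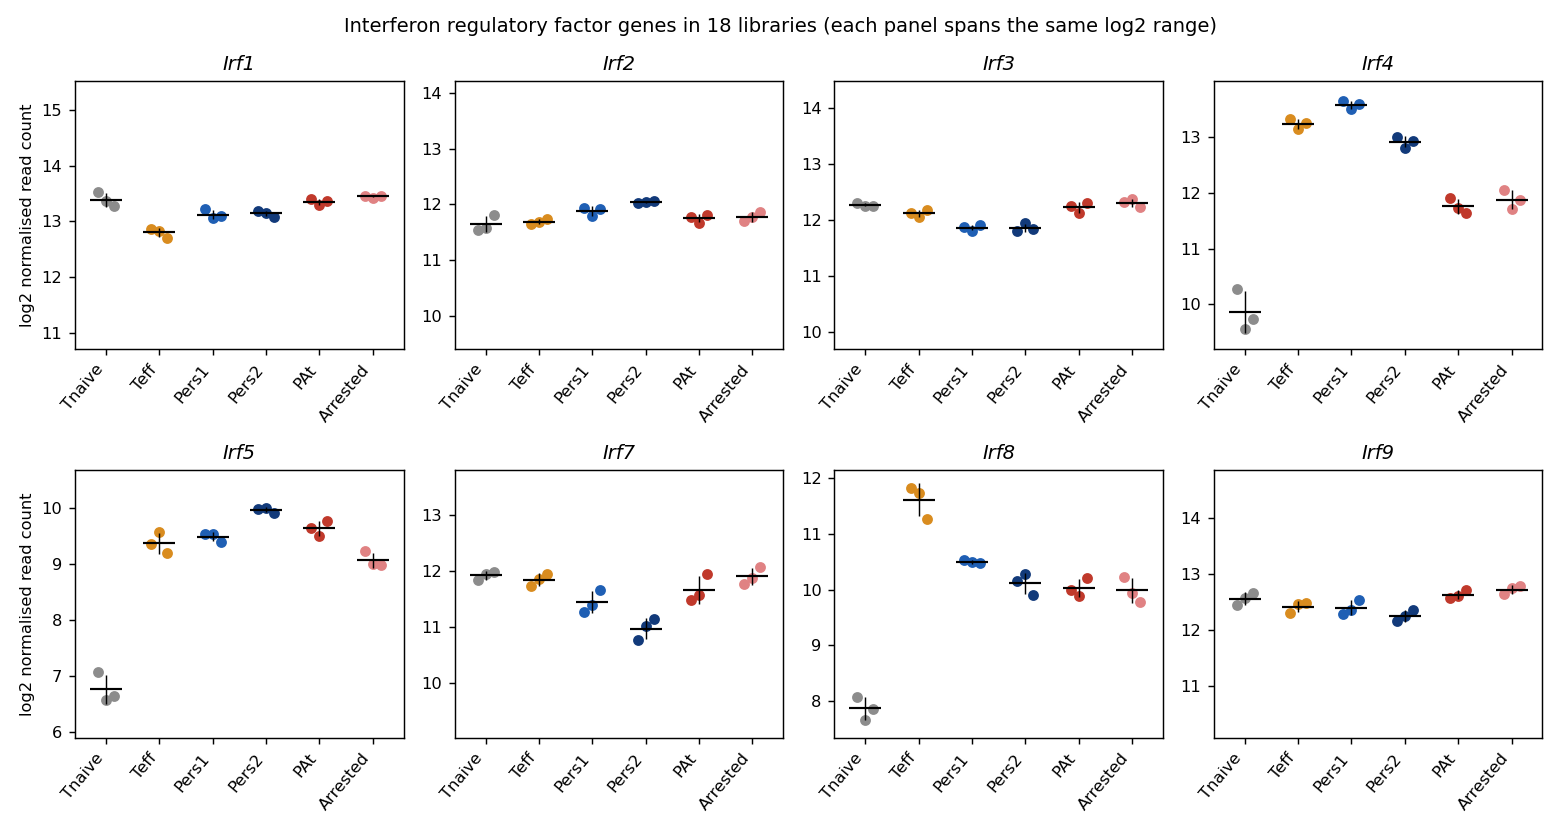
Log2 normalised read counts of the 8 genes (vertical axes, each panel spanning the same range) in 6 populations (horizontal axes), with 3 libraries as points, the mean as a bar and its SD as a vertical line. Irf4, Irf5 and Irf8 are at their lowest in Tnaive, Irf8 stands out in Teff, and Irf7 is at its lowest in Pers2.

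To show what lies upstream of these genes, the 250 bases before the annotated start were taken from RefSeq (GRCm38.p6), which lists 11 starts for the 8 members. Each was searched on both strands for GAAANNGAA (the core of an interferon-stimulated response element, ISRE), GGAANNGAA (an Ets-IRF element), TTCNNNGAA (GAS, the element of Stat dimers) and TGANTCA (the AP-1 element). These words were found in 7.13%, 6.99%, 7.02% and 6.75% of 32851 promoters of that length. Irf4 is shown because it changed most among Foxp3 expressors, and Irf8, Irf1 and Irf2 because their windows held a word, with each match in capitals.

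Irf4, chr13:30748983-30749232, + strand: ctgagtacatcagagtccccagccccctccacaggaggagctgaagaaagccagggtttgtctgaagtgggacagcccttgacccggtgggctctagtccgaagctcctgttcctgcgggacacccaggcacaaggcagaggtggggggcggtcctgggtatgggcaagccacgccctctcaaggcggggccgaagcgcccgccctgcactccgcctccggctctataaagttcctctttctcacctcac
Irf8, first start, chr8:120736108-120736357, + strand: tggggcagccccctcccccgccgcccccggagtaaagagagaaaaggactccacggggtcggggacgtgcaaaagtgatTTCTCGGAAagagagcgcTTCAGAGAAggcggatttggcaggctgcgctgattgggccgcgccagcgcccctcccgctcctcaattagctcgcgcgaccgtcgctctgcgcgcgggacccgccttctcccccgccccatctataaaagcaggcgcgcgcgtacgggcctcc
Irf1, first start, chr11:53769764-53770013, + strand: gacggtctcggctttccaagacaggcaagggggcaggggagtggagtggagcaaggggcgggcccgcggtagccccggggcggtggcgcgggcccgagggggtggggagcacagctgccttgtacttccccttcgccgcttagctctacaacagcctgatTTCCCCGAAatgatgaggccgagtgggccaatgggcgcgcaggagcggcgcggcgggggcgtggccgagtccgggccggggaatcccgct
Irf2, chr8:46739495-46739744, + strand: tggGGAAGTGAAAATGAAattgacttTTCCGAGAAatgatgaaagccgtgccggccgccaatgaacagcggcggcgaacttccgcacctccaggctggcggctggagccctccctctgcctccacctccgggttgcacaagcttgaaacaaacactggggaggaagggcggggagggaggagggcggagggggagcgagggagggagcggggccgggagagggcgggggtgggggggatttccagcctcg

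In Irf8 the capitals mark the GAS words TTCTCGGAA and TTCAGAGAA, which began 171 and 153 bases before the start. In Irf1 they mark the GAS word TTCCCCGAA, which began 90 bases before the start. Irf2 held the Ets-IRF word GGAAGTGAA and the ISRE core GAAAATGAA, which share 3 bases, and the GAS word TTCCGAGAA, at 247, 241 and 224 bases. None of the 4 words stood in the windows of Irf3, Irf4, Irf5, Irf7 and Irf9, nor at the second starts of Irf1 and Irf8. So 3 of 11 windows held a word. The shares above are for each word alone. The share of promoters with any of the 4 was not counted, so no excess can be read from this count. A match is a run of letters and was not tested as a binding site, and a window without one says nothing about the factor.

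The Foxp3 level went with the labels, with means of 14.42 to 14.82 in the 4 Timer+ populations, 11.34 in Tnaive and 10.54 in Teff. The first comparison set Foxp3 expressors with persistent transcription (Pers1 and Pers2) against PAt and Arrested. In the study PAt was sorted as low and Arrested as negative for blue Timer. They are called matured below, though Pers2 was also sorted as high for red Timer. Irf4 was the only member called, where a call needed an adjusted p under 0.05 (limma, Benjamini-Hochberg over all genes tested) and a log2 difference over 1 in size. That is 1 of 8, against 7.51% of all genes tested and 4.74% for higher calls. Irf4 stood at 13.64, 13.50 and 13.59 in the Pers1 libraries and at 13.00, 12.80 and 12.92 in Pers2. It stood at 11.91, 11.72 and 11.64 in PAt and at 12.04, 11.70 and 11.87 in Arrested. Every persistent library lay above every PAt and Arrested library, and the difference was 1.43 (SE 0.09, 95% interval 1.24 to 1.61, adjusted p = 6.3e-12). Within the 3 replicate pools it was 1.343, 1.436 and 1.497.

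The other 7 members differed by less than 0.6 on the log2 scale, yet all 8 had an adjusted p under 0.05, as did 70.9% of all genes tested. The genes Irf7, Irf3, Irf9 and Irf1 were lower in persistent cells. Irf7, which amplifies type I interferon, was lower by 0.58 (SE 0.08, adjusted p = 2.3e-06). Irf3, which starts that response, was lower by 0.40 (SE 0.04, adjusted p = 1.3e-08). Irf9, the DNA-binding subunit of ISGF3, was lower by 0.35 (adjusted p = 3.9e-06) and Irf1 by 0.27 (adjusted p = 1.0e-05).

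Irf1, Irf3 and Irf9 were below PAt and Arrested in every persistent library. Irf4 and these 3 made 4 of 8 members whose groups did not overlap, against 45.8% of all genes tested. Irf5 (0.38), Irf8 (0.30, adjusted p = 0.010) and Irf2 (0.20) were higher in persistent cells, with overlapping libraries. The median difference of the 8 members was -0.03 and that of all genes tested -0.01.

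**Figure D2:**
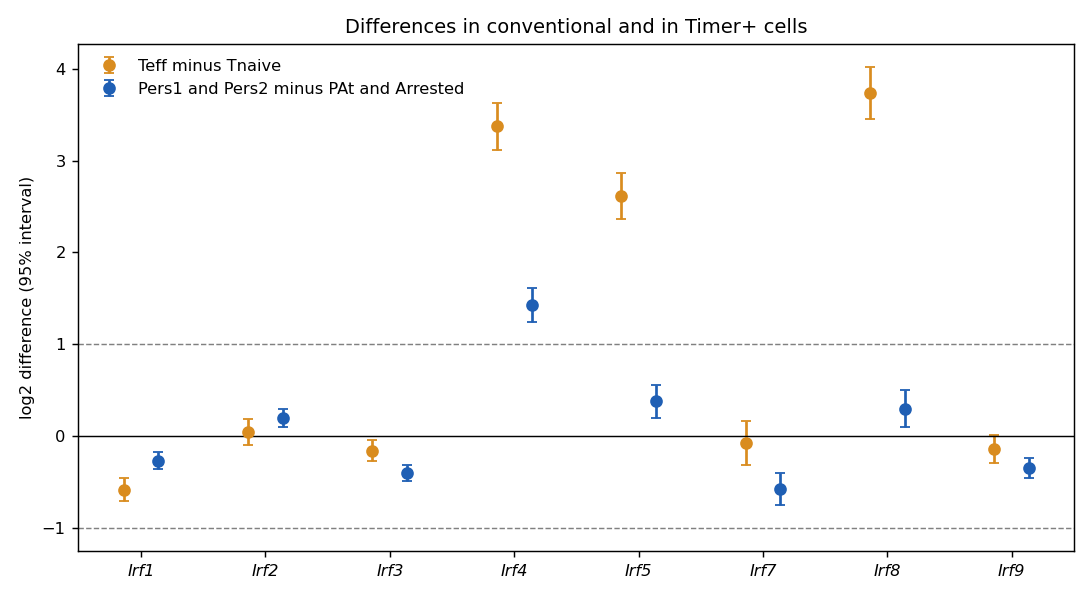
Log2 differences (vertical axis) of the 8 genes (horizontal axis) with 95% intervals from limma, for Teff minus Tnaive and for the persistent populations minus PAt and Arrested. Dashed lines mark a log2 difference of 1 in size. Irf4, Irf5 and Irf8 exceed it in conventional cells, and Irf4 does in Foxp3 expressors.

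The second comparison was that of activated with naive conventional cells. Irf8, Irf4 and Irf5 were called higher in Teff, 3 of 8 against 8.88% of all genes for higher calls and 11.2% for both directions. Irf8 had values of 11.82, 11.73 and 11.27 in Teff and of 8.08, 7.67 and 7.87 in Tnaive. All Teff libraries were above all Tnaive libraries, by 3.73 in the mean (SE 0.14, adjusted p = 1.7e-15).

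Irf4 was at 13.31, 13.14 and 13.24 in Teff against 10.28, 9.55 and 9.74 in Tnaive, a difference of 3.37 (SE 0.12, adjusted p = 1.7e-15). Irf5 was at 9.36, 9.56 and 9.19 against 7.06, 6.58 and 6.63, a difference of 2.61 (SE 0.12, adjusted p = 7.15e-14). Neither gene had overlapping groups, and the first Tnaive library was the highest of its group for all 3 genes.

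Of the other 5 members, 2 were lower in Teff and 3 did not pass. Irf1, an activator that interferon-gamma induces, was lower by 0.59 (SE 0.06, adjusted p = 3.3e-08), with 12.87, 12.83 and 12.70 against 13.52, 13.37 and 13.28. Irf3 was lower by 0.16 (adjusted p = 0.019), which missed the threshold without the second Teff library (0.13 lower, adjusted p = 0.094) or without the first Tnaive library (0.14 lower, adjusted p = 0.068). With these, 5 of 8 members passed on the adjusted p alone, as did 59.0% of all genes, and 5 of 8 did not overlap, as did 64.9%. Irf2 (0.04, 95% interval -0.09 to 0.18), Irf7 (-0.08, interval -0.32 to 0.17) and Irf9 (-0.14, interval -0.29 to 0.0087) did not pass. Irf9 passed with the replicate number as a block (adjusted p = 0.0047).

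The level of Irf8 in Teff has to be read beside other cell types, since Teff libraries carried their markers. The marker lists of plasmacytoid and conventional dendritic cells hold 9 genes each, and 8 and 7 of them were called higher in Teff than in Tnaive. Of all genes tested, 8.88% were called higher there. All 8 B-cell markers were called higher, as were 3 of 7 tested macrophage or monocyte markers, 2 of 4 natural killer cell markers and Cd8a. Eomes, on the natural killer cell list, was called lower. The summed level of that list had a mean of 9.02 in Teff and of 9.23 in Tnaive. Siglech, a surface receptor of plasmacytoid dendritic cells, had a mean of 10.62 in Teff and of 3.58 to 4.30 in the other 5 populations. Klk1, another of their markers, had 8.39 against 3.32 to 3.54.

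The summed level of the conventional dendritic-cell list was 10.50 to 10.75 in Teff libraries and 7.25 to 7.75 in all others. That of the plasmacytoid list was 12.53 to 12.98 in Teff and 10.09 to 11.85 in all others, and that of the B-cell list was 11.89 to 12.58 in Teff and 9.90 to 10.35 in Tnaive. The summed list of 9 T-cell markers was 17.26 to 17.97 in all libraries. Within it Cd3e had means between 13.66 and 13.87, while Cd4 ran from 14.49 in PAt to 15.67 in Teff, and Tcf7 from 13.11 in Pers2 to 16.14 in Tnaive.

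In bulk libraries more cells of a type and more RNA per cell cannot be told apart, and the part of other cells in the Teff values of Irf8, Irf5 and Irf4 was not tested. The lists also moved between Tnaive and Foxp3 expressors. Siglech was at 3.85 in Tnaive, 4.03 in PAt and 3.97 in Arrested, and Flt3 was at 4.49, 4.16 and 3.90. Irf8 was higher in PAt and Arrested than in Tnaive by 2.13 (SE 0.12, adjusted p = 1.9e-12), and the part of dendritic cells in this was not tested. Of the 9 plasmacytoid markers 3 were called higher there, Runx2, Ly6d and Tlr7, and 5 were higher on the adjusted p. Of all genes tested, 6.63% were called higher there, and 50.7% passed on the adjusted p in either direction. The sum of all 9 was 11.20 to 11.58 against 10.09 to 10.30. Its largest part was Tlr7, with means of 10.62 in PAt, 10.31 in Arrested and 8.99 in Tnaive. None of the 9 conventional dendritic-cell markers was called (limma; 2 of 9 had an unadjusted p under 0.05). Of 7 tested macrophage or monocyte markers, Lyz2 was called higher by 1.68 (adjusted p = 1.4e-05) and Itgam was called lower. On the adjusted p, 3 of these 7 were higher and 2 lower. The summed B-cell markers were higher in PAt and Arrested, at 11.61 to 12.20 against 9.90 to 10.35. In Pers1 and Pers2 the B-cell sums were 10.82 to 11.12. Irf8 was 0.30 higher in Pers1 and Pers2 than in PAt and Arrested. The part of B cells in the Irf8 level of any population was not tested.

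**Figure D3:**
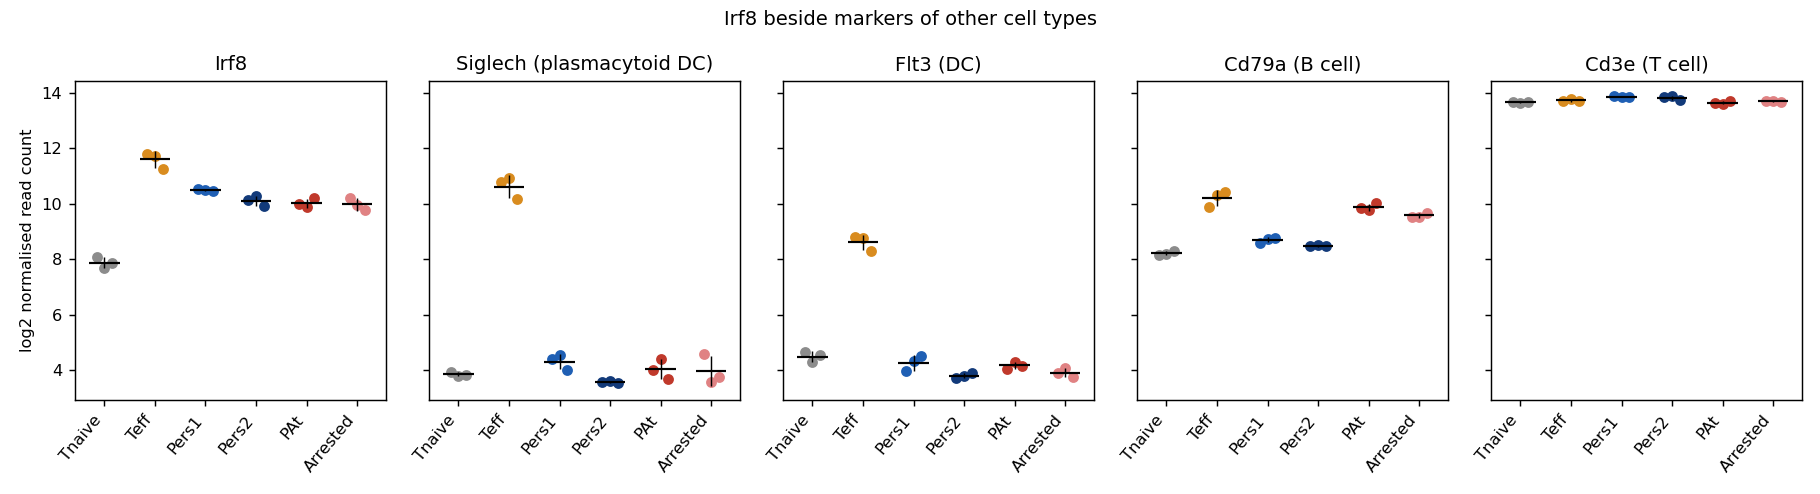
Log2 normalised read counts (shared vertical axis) of Irf8, of Siglech, Flt3 and Cd79a as markers of plasmacytoid dendritic cells, dendritic cells and B cells, and of the T-cell marker Cd3e, in 6 populations (3 libraries as points, mean as a bar, SD as a line). Siglech and Flt3 stand out in Teff, Cd79a is high in Teff, PAt and Arrested, and Irf8 is above Tnaive in all 5 other populations.

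The third question was whether Foxp3 expressors had the levels of activated or of naive cells. Against Tnaive, the matured populations PAt and Arrested had Irf5, Irf8 and Irf4 called higher, 3 of 8 against 6.63% of all genes for higher calls and 7.90% for both directions. The differences were 2.60 for Irf5 (SE 0.10, adjusted p = 7.55e-15), 2.13 for Irf8 and 1.96 for Irf4 (SE 0.11, adjusted p = 1.5e-12). None of the other 5 members passed, and their differences ran from -0.14 for Irf7 to 0.12 for Irf2, with Irf1 at 0.0074 and Irf3 at -0.01. These 3 did not overlap (41.9% of all genes did not) and were also those that passed on the adjusted p alone (50.7% of all genes did), while with the replicate block 6 of 8 passed. The 3 added were Irf9 (0.12, adjusted p = 0.0093), Irf7 (-0.14, adjusted p = 0.026) and Irf2 (0.12, adjusted p = 0.036).

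Against Teff, PAt and Arrested had Irf8 lower by 1.60 (SE 0.12, adjusted p = 2.7e-10) and Irf4 lower by 1.42 (SE 0.11, adjusted p = 3.7e-10), 2 of 8 against 4.04% for lower calls and 6.88% for both directions. Irf5 differed from Teff by -0.02 (95% interval -0.24 to 0.20). Irf1 was higher by 0.59 (adjusted p = 3.8e-09) and Irf9 by 0.26 (adjusted p = 0.0017), and in both no library overlapped. That made 4 of 8 members without overlap (41.0% of all genes) and, with Irf3, 5 of 8 that passed on the adjusted p (52.7%). Irf3 was higher by 0.15 (adjusted p = 0.015), which missed the threshold without the second Teff library (0.11, adjusted p = 0.10). Irf2 (0.08, 95% interval -0.04 to 0.20) and Irf7 (-0.06, interval -0.27 to 0.15) did not pass.

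Against Teff, the persistent populations had 1 call of 8, Irf8 lower by 1.30 (SE 0.12, adjusted p = 5.8e-09), where 4.03% of all genes were called lower and 8.31% in either direction. Their Irf8 libraries, 10.52, 10.49 and 10.47 in Pers1 and 10.14, 10.28 and 9.91 in Pers2, were all below the 3 Teff libraries. The mean of the persistent populations hid an order for Irf4. Pers1 was above Teff by 0.34 (SE 0.12, adjusted p = 0.024) and Teff above Pers2 by 0.32 (SE 0.12, adjusted p = 0.032), so that the pooled difference was near 0 (95% interval -0.21 to 0.23) and turned to -0.05 when libraries were centred on their medians.

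On the adjusted p alone, 6 of 8 members differed between persistent cells and Teff, as did 58.7% of all genes. Irf7 (-0.64, adjusted p = 1.4e-05) and Irf3 (-0.25, adjusted p = 0.00013) were lower in every persistent library. Irf1 (0.33, adjusted p = 1.5e-05) and Irf2 (0.27, adjusted p = 0.00032) were higher in every persistent library, which with Irf8 made 5 of 8 members without overlap, against 49.0% of all genes. Irf5 was higher by 0.36 (adjusted p = 0.0054), which missed the threshold without the third Teff library (0.27, adjusted p = 0.057). Irf9 did not pass (-0.09, adjusted p = 0.23), and passed with the block (adjusted p = 0.033).

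The shift from PAt and Arrested to the persistent populations was then set against the shift from Tnaive to Teff in 1 contrast. It was smaller for Irf8 by 3.44 (SE 0.17, adjusted p = 5.2e-13), for Irf5 by 2.24 (SE 0.15, adjusted p = 5.8e-11) and for Irf4 by 1.95 (SE 0.15, adjusted p = 8.9e-10). These were 3 of 8 members called, against 6.90% of all genes called in that direction and 8.42% in both, and 6 of 8 passed on the adjusted p, as did 48.7%. The markers of dendritic and B cells in Teff enter this contrast as well, as does the lower start of Tnaive. Against Tnaive, PAt and Arrested were already higher by 2.13 for Irf8, 2.60 for Irf5 and 1.96 for Irf4. Irf7 (-0.50, adjusted p = 0.0059) and Irf3 (-0.24, adjusted p = 0.0062) shifted lower in Foxp3 expressors than in conventional cells, and the drop of Irf1 was smaller (0.32, adjusted p = 0.0011). Irf2 (0.15, adjusted p = 0.12) and Irf9 (-0.21, adjusted p = 0.063, and 0.0017 with the replicate block) did not pass.

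Within the persistent pair no member was called, and 0.190% of all genes were (limma; 5 of 8 members had an unadjusted p under 0.05). On the adjusted p, 3 of 8 members differed, against 10.6% of all genes. Irf4 was lower in Pers2 than in Pers1 by 0.67 (SE 0.12, adjusted p = 0.0013), with no overlap, and by 0.64, 0.70 and 0.67 within the 3 pools. Irf7 was at 10.76, 11.01 and 11.14 in Pers2 and at 11.27, 11.39 and 11.66 in Pers1, lower by 0.47 (SE 0.12, adjusted p = 0.012). Irf5 went the other way, at 9.99, 10.00 and 9.92 in Pers2 against 9.53, 9.54 and 9.40 in Pers1, higher by 0.48 (SE 0.12, adjusted p = 0.014).

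Irf7 and Irf5 did not overlap between Pers1 and Pers2 either, which made 5 of 8 members with Irf2 and Irf8, against 31.9% of all genes. Both calls on the adjusted p depended on single libraries. Without the third Pers1 library the adjusted p was 0.092 for Irf7 and 0.073 for Irf5, without the first Pers2 library it was 0.073 for Irf7, and without the second Pers2 library it was 0.051 for Irf5. With the replicate block 6 of 8 passed, adding Irf8 (-0.38, adjusted p = 0.038 in place of 0.081), Irf9 (-0.15, adjusted p = 0.019) and Irf2 (0.17, adjusted p = 0.043). Irf1 (0.02, 95% interval -0.10 to 0.15) and Irf3 (-0.0038, interval -0.12 to 0.11) passed in neither fit.

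Between Arrested and PAt, Irf5 alone passed on the adjusted p, 1 of 8 against 5.04% of all genes. No member was called (limma; 1 of 8 had an unadjusted p under 0.05), against 0.121% of all genes. Irf5 was at 9.23, 8.99 and 8.98 in Arrested and at 9.65, 9.49 and 9.77 in PAt, and was lower in Arrested by 0.57 (SE 0.12, adjusted p = 0.0069). Irf5 and Irf1 were the 2 of 8 members whose groups did not overlap, against 18% of all genes. Irf7 was 0.24 higher in Arrested and passed only with the block (adjusted p = 0.012 in place of 0.28). Irf4 differed by 0.12 (95% interval -0.14 to 0.37) and Irf8 by -0.05 (interval -0.33 to 0.24). Irf1 (0.10), Irf9 (0.09), Irf3 (0.08) and Irf2 (0.02) had adjusted p-values of 0.41 to 0.91.

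Ordered by its means, Irf4 descended from Pers1 (13.57 ± 0.07, SD, n = 3) through Teff (13.23 ± 0.09), Pers2 (12.91 ± 0.10), Arrested (11.87 ± 0.17) and PAt (11.76 ± 0.14) to Tnaive (9.86 ± 0.38). Of these neighbours only Arrested and PAt did not differ beyond their spread (adjusted p = 0.68). Irf5 descended from Pers2 (9.97 ± 0.04) through PAt (9.64 ± 0.14), Pers1 (9.49 ± 0.08), Teff (9.37 ± 0.19) and Arrested (9.07 ± 0.14) to Tnaive (6.76 ± 0.27), and neither PAt and Pers1 nor Pers1 and Teff were separated. In Irf8, Teff (11.60 ± 0.29) was apart from Pers1 (10.49 ± 0.03), and Arrested (9.98 ± 0.22) from Tnaive (7.87 ± 0.20), and no other neighbours were separated without the block (Pers1 and Pers2 were with it, adjusted p = 0.038). Irf7 was separated at its low end, Pers1 (11.44 ± 0.20) from Pers2 (10.97 ± 0.19). With the block, Teff was also separated from PAt (adjusted p = 0.012) and PAt from Pers1 (adjusted p = 0.0021) for Irf7.

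Among the flatter genes, Irf1 fell from Arrested, Tnaive and PAt (13.35 ± 0.05) to the persistent pair (Pers2, 13.14 ± 0.05, adjusted p = 0.0059) and again to Teff (12.80 ± 0.09, adjusted p = 0.00014). Irf3 had a single step, from Teff (12.12 ± 0.06) to Pers1 (11.87 ± 0.05, adjusted p = 0.00071). Without the block no neighbours were separated for Irf2 (11.65 to 12.05) or Irf9 (12.26 to 12.73). With it, Pers2 and Pers1 were separated for Irf2 (adjusted p = 0.043) and Irf9 (0.019), and Tnaive and Teff for Irf9 (0.0047).

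The genes whose 6 population means were most like those of each member were listed as a description, with Pearson's r over 6 means of the same libraries, among 7608 genes with a span over 0.5. For Irf4 they were Tbx21 (r = 0.998), St6galnac6 (0.996) and Ugdh (0.995), for Irf5 Fbxl19 (0.997), Furin (0.996) and Slc43a1 (0.996), and for Irf8 Synj2 (0.996), Cd200 (0.995) and Adarb1 (0.995). For Irf1 they were Rcor2 (0.996) and Parp12 (0.984), and for Irf7 Phyhd1 (0.995), Zfp3 (0.988) and Dusp12 (0.984). Between members, r was 0.90 for Irf4 and Irf8, 0.89 for Irf3 and Irf9, 0.86 for Irf3 and Irf7, and -0.95 for Irf2 and Irf7.

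The genes around the family were taken by role, first for persistent cells against PAt and Arrested. Of all genes tested, 7.51% were called in this comparison, 4.74% as higher, and 70.9% passed on the adjusted p. Among 17 tested partners of Irf4 and Irf8 and genes of the Blimp1 circuit, 3 were called higher and 3 lower, with a median difference of 0.00. Batf, which binds with Irf4 and Jun proteins, rose by 1.28 (adjusted p = 1.0e-12) while Jun fell by 2.09 (adjusted p = 5.2e-12). Junb was lower by 0.99 (adjusted p = 1.4e-05), and Jund did not pass (-0.13, adjusted p = 0.37). Bach2, a repressor that restrains effector differentiation, fell by 2.10 (adjusted p = 6.5e-18), and Prdm1, which encodes Blimp1, rose by 2.97 (adjusted p = 1.3e-19). Ikzf3, an Ikaros family factor, rose by 1.35, and Spib, the Ets partner found in B cells and plasmacytoid dendritic cells, fell by 1.14 along with the B-cell markers, of which 8 of 8 were lower on the adjusted p.

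Of the 14 genes listed as Irf4-dependent in effector regulatory T cells, 11 were called higher and none lower, with a median difference of 1.83. Gzmb, a cytotoxic protease, was higher by 5.28, Prdm1, which stands in both lists, by 2.97, the costimulatory receptor Icos by 2.48 and the cytokine Il10 by 2.26. Several of these genes were known from these samples to be high in persistent cells when the list was made, so it is not independent evidence of direction. Against Teff, all 14 were called higher in persistent cells (median 2.56), where 8.31% of all genes were called in either direction. In Pers2 against Pers1, 11 of 14 were higher and none lower on the adjusted p (median 0.76), where 10.6% of all genes passed. Whether any of these genes depended on Irf4 in these cells was not tested.

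Upstream of Irf3, Irf5 and Irf7, none of 20 tested sensing genes was called in persistent cells against PAt and Arrested (limma; 18 of 20 had an unadjusted p under 0.05, and 7 were higher and 9 lower on the adjusted p), with a median of -0.06. Downstream, 3 of 15 genes of interferon receptors and the Jak-Stat pathway were called, all lower, with a median of -0.24. They were the feedback inhibitors Socs1 (-1.44, adjusted p = 4.1e-08) and Usp18 (-1.33, adjusted p = 3.0e-09) and the receptor chain Ifngr2 (-1.20, adjusted p = 1.1e-13). Stat2, a subunit of ISGF3 with Irf9, was lower by 0.24 (adjusted p = 0.0013).

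The target lists moved in smaller steps. Of 28 targets of ISGF3 and Irf7, 3 were called lower and none higher, the antiviral genes Ddx60 (-1.54, adjusted p = 1.1e-10), Oasl2 (-1.43, adjusted p = 5.3e-07) and Oasl1 (-1.09, adjusted p = 1.4e-07). On the adjusted p 15 of the 28 were lower and 6 higher (median -0.15), where 70.9% of all genes passed in either direction. Of 27 tested targets of Irf1 and interferon-gamma, 1 was called higher, Il12rb1, a receptor chain for Il12 (1.31, adjusted p = 3.7e-12). Another 2 were called lower, the GTPase Tgtp1 (-1.18), which has a near-identical copy in Tgtp2, and Ciita, the class II transactivator (-1.12), which B cells also express. The median of this list was 0.01.

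**Figure D4:**
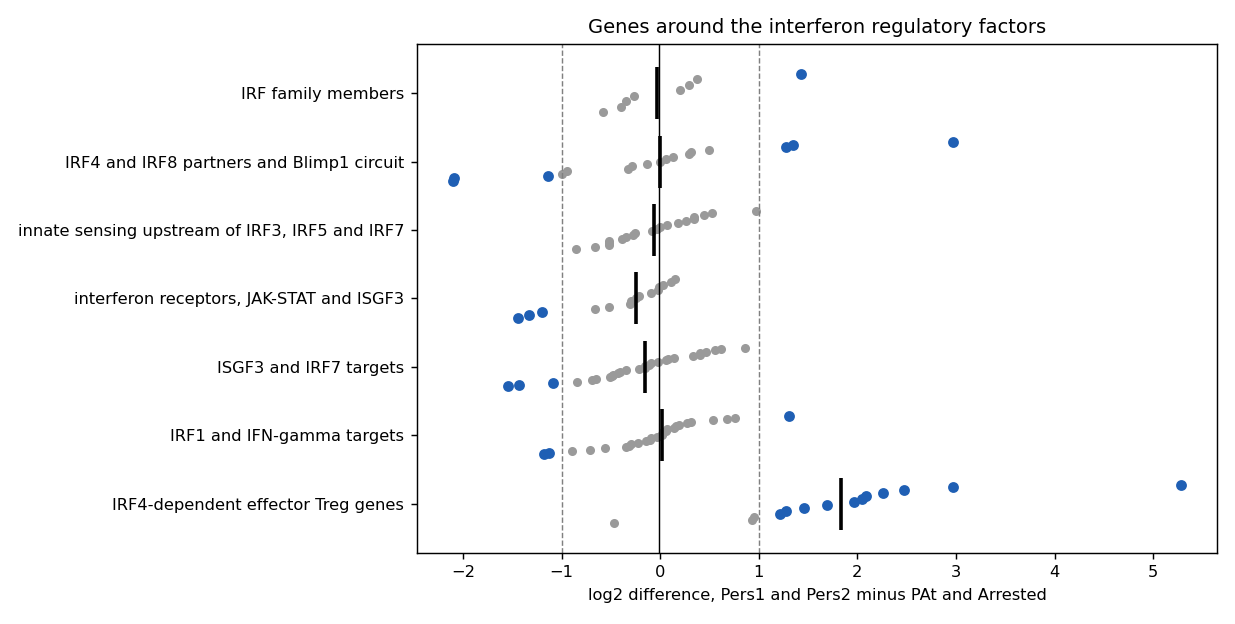
Log2 differences (horizontal axis) of Pers1 and Pers2 from PAt and Arrested for tested genes of 7 lists (rows), with called genes in blue, list medians as thick lines, the median of all genes as a thin line and dashed lines at a difference of 1 in size. The Irf4-dependent genes have a median of 1.83, while the other 6 lists have medians between -0.24 and 0.01.

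In Teff against Tnaive the same lists were counted. There 11.2% of all genes tested were called, 8.88% as higher, and 59% passed on the adjusted p. Among the partners, 6 of 17 were called higher and 2 lower, led by Spib (3.58, adjusted p = 2.1e-14) and Spi1 (2.36, adjusted p = 6.5e-13), the Ets partners of Irf4 and Irf8, followed by the repressor Bcl6 (1.92) and the calcium-regulated factor Nfatc1 (1.68). The 2 lower partners were Bach2 (-1.58) and Jun (-1.09). Of the 20 sensing genes 2 were called higher and 2 lower (median 0.11), Tlr9, an endosomal DNA sensor, by 3.02 and Tlr4, the receptor for lipopolysaccharide, by 1.07 upwards, and the cytosolic sensors Mb21d1 (-1.07) and Ddx58 (-1.002) downwards. Of the 15 receptor and Jak-Stat genes 1 was called higher, the kinase Jak2 (1.53), and 3 lower, Ifngr2 (-1.47), Socs3 (-1.18) and Socs1 (-1.06), with a median of -0.04. Of the 28 targets of ISGF3 and Irf7, 3 were called higher and 2 lower (median 0.06), led by Mx1 (2.24), Ifi27l2a (2.01), Oas2 (-1.95) and Rsad2 (1.24). The lists of dendritic-cell and B-cell markers were higher in these libraries, as given above, and their part in these lists was not tested. Of the Irf4-dependent genes 10 of 14 were called higher (median 2.71), led by Tigit (5.24). Among 27 targets of Irf1 and interferon-gamma 4 were called higher and 3 lower, and on the adjusted p 5 were higher and 12 lower (median -0.15). Casp1, the inflammatory caspase, was higher by 3.97, Ciita by 3.09 and Il12rb1 by 2.81, and Tgtp1 was lower by 1.94.

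Several members overlap other genes in GENCODE vM21, and it is not stated whether the authors' counting used the strand. Irf1, Irf2 and Irf7 share between 45 and 1723 bases with genes on the opposite strand, and Irf9 overlaps Rnf31 on its own. Irf3 shares 1065 bases with Bcl2l12 and Irf5 1045 with Tnpo3 on the opposite strand, and Irf8 lies over its whole 20337 bases within Gm20388 on its own strand, so a part of their values could be split or shared. Irf4 (chr13:30749226-30766976) overlaps no other gene.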

How the data were processed

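RNA from 18 libraries, 3 for each of 6 sorted populations, was sequenced after TruSeq stranded mRNA preparation. Per the labels, reads were aligned to mm10 with TopHat2 2.0.9 and analysed with DESeq2. For 15402 genes the authors deposited normalised counts on a log2 scale, whose form is that of a regularised log. That transform shrinks the differences of weakly covered genes. Depth is unknown, as read counts were not analysed here, and the precision rests on the 3 libraries.

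The values were used as deposited, with no pseudocount. The 13190 genes with a mean of at least 3 were fitted in 1 limma 3.58.1 model (R 4.3.3) of 6 populations (12 residual degrees of freedom, variance trend), with Benjamini-Hochberg adjustment. As in the study, calls needed an adjusted p under 0.05 together with a log2 difference over 1 in size. Other filters, thresholds, sample sets, centring on library medians, a replicate block and leaving out each library were alternatives. The model was tested on simulated data. Coordinates came from GENCODE vM21 (GRCm38), and levels per length used the union of exons. matplotlib 3.10.9 drew the figures.

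All 8 members were named in every comparison, and from each list up to 4 called genes of the greatest size in the comparison described. Values of some single genes under this rule are not reported here. Batf, Spib, Junb and Jund in persistent cells, Bach2 and Jun in Teff against Tnaive, Stat2 and the marker genes were named after their values were seen. The members and lists were chosen with earlier results of these data known. The deposited description has all populations sorted from the same animals, so the replicate number was taken to pair libraries. Deviations from population means correlated at a median of 0.166 over 45 same-number pairs (-0.206 to 0.436, 32 over 0.1) and of -0.064 over 90 other pairs, and 17 of 18 libraries correlated best with their own number.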

Additional observations from a re-analysis of the deposited data

Results flagged for a closer look

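The shift from PAt and Arrested to the persistent populations differed from the shift from Tnaive to Teff for 3 members, by a test of the difference itself (limma, 18 libraries). The difference of the shifts was -1.95 for Irf4, -2.24 for Irf5 and -3.44 for Irf8 on the log2 scale. The 3 genes were higher in persistent cells than in PAt and Arrested and higher in Teff than in Tnaive, and the shift in Foxp3 expressors was the smaller. The shifts began at unlike levels, with PAt and Arrested above Tnaive by 1.96 for Irf4, 2.60 for Irf5 and 2.13 for Irf8. At the other end persistent cells differed from Teff by 0.01 for Irf4, 0.36 for Irf5 and -1.30 for Irf8. Markers of dendritic and B cells were higher in the Teff libraries, and their part in these differences was not tested.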

How the results depend on the processing

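Under the alternatives, 129 of 138 counts of called members stayed within 1.5 times the main count, and 949 of 976 log2 differences kept their direction and their side of the call. On the adjusted p alone, the counts became 8 for persistent against matured cells (PAt and Arrested), 5 for Teff against Tnaive, 3 for Pers2 against Pers1, 1 for Arrested against PAt, 6 for persistent cells against Teff, 5 for matured cells against Teff and 6 for the difference of the shifts. At a 1.5-fold threshold they became 1 for Pers2 against Pers1 (Irf4) and 2 for persistent cells against Teff. The looser threshold is the cause by construction.

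The 27 reversals were all of differences near 0. Centring libraries on their medians, which moved the median of all genes by less than 0.1, turned Irf2 in Teff against Tnaive (-0.039), Irf4 in persistent cells against Teff (-0.052) and Irf1 in matured cells against Tnaive (-0.071), and brought the adjusted p of Irf9 to 0.0083 in Teff against Tnaive and 0.037 in persistent cells against Teff. With only Pers1 and Pers2 in the fit, that of Irf8 between them was 0.0068. Leaving out 1 library at a time turned Irf2 in Teff against Tnaive (-0.0050 to 0.13), Irf3 in matured cells against Tnaive (-0.033 to 0.014), Irf3 in Pers2 against Pers1 (-0.044 to 0.025), Irf4 in persistent cells against Teff (-0.036 to 0.050), Irf1 in Pers2 against Pers1 (-0.0102 to 0.0701), Irf1 in matured cells against Tnaive (-0.0499 to 0.073), Irf5 in matured cells against Teff (-0.11 to 0.079), Irf2 in Arrested against PAt (-0.022 to 0.063) and Irf8 in Arrested against PAt (-0.17 to 0.056). The cause was not tested.

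Over all genes, the counts of called genes on the adjusted p alone were 9357, 7785, 1395, 665, 7739, 6684, 6950 and 6420 against 990, 1472, 25, 16, 1096, 1042, 908 and 1110, for persistent against matured cells, Teff against Tnaive, Pers2 against Pers1, Arrested against PAt, persistent cells against Teff, matured cells against Tnaive and against Teff, and the shifts. At 1.5-fold they were 2717, 2956, 202, 140, 2278, 1987, 2037 and 2541. Without the third Arrested library 26 genes were called between Arrested and PAt.

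With the replicate block the members called were unchanged in every comparison (Irf4 in persistent against matured cells, 1.43, SE 0.06, adjusted p = 5.6e-15). It moved 10 adjusted p-values of smaller differences across 0.05, which are given beside their results. Depth was unknown, so counting error could not be set beside the spread of 3 libraries, and small differences of Irf5 and of Irf8 in Tnaive, the lowest levels here, may be shrunk by the transform.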

Other observations

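Genes named after the Irf2-binding proteins were measured beside the family. Irf2bp2 (by 0.72, adjusted p = 2.9e-06), Irf2bpl (by 0.49, adjusted p = 6.8e-05) and Irf2bp1 (by 0.28, adjusted p = 7.1e-05) were lower in persistent cells than in PAt and Arrested, each by less than the log2 difference of 1 that a call needed. Among the Timer+ populations the Irf2bp2 level was the lowest in Pers2 (10.72 ± 0.40, SD, n = 3), followed by Pers1 (11.30 ± 0.09), PAt (11.68 ± 0.15) and Arrested (11.78 ± 0.21), and it was also called lower in persistent cells than in Teff (-1.03, adjusted p = 5.3e-07).

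In the matured populations against Tnaive, Tlr7, a sensor of single-stranded RNA upstream of Irf5 and Irf7, was called higher by 1.47 (adjusted p = 1.2e-10). It was the 1 call among 20 sensing genes, where 6.63% of all genes tested were called higher and 7.90% in either direction.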
